A study of Mus musculus with 9 samples.

Results

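The synaptonemal complex and HORMA axis genes are 8 genes that encode the protein scaffold of meiotic chromosomes, Sycp2, Sycp3, Hormad1, Hormad2, Sycp1, Syce1, Syce2 and Tex12. They were chosen by gene symbol, as every array row annotated with exactly 1 of these names, which gave 9 rows for 8 of the 19935 genes measured, because Hormad1 has 2 rows. Whole testis of male Swiss albino mice, from an inbred line and untreated, was compared at 8, 16 and 24 days of age, with 3 arrays described as biological replicates at each age. The labels do not say whether an array holds 1 animal or a pool. At each age a pair of arrays is numbered 1 and 2 in its titles, and the unnumbered array is called replicate 3 here.

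In meiosis each pair of sister chromatids is organised along a protein axis, built from cohesins, the core proteins SYCP2 and SYCP3 and the HORMA domain proteins HORMAD1 and HORMAD2. When homologous chromosomes pair, SYCP1 bridges the axes as the transverse filament, and the central element proteins SYCE1, SYCE2 and TEX12 hold the bridge together. In the first wave of spermatogenesis in the mouse, spermatogonia come first, spermatocytes in meiotic prophase follow, and haploid spermatids appear last, so that whole testis gains later germ cells with age.

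Each deposited value is a log2 value relative to the row's median over the 9 arrays, with blank cells taken as 0. No source names the base of the logarithm, which was taken as 2, as every fold change assumes. Values show differences between arrays of the same gene and no level, and levels of different genes cannot be compared. In whole testis, fewer cells of a type and less RNA per cell cannot be told apart. Changes are in log2 units with limma's standard error, and a gene is said to rise or fall when its p, adjusted by Benjamini-Hochberg over all 19935 genes, was under 0.05.

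Promoters are shown first, for the 5 genes that hold a match to the E2F motif GCGGGAA or to the E-box CACGTG. E2F6 and the pair MGA and MAX belong to a repressor complex that keeps germ cell genes silent in other cells, and they bind sites of these kinds. The sequences are from RefSeq on build GRCm38.p6 and run 5′ to 3′ along the gene over the 250 bases before an annotated transcription start. Capitals mark matches to any of the 5 motifs searched on both strands. The Sycp3 promoter lies at chr10:88459337-88459586 on the plus strand, that of Hormad1 at chr3:95559427-95559676 (plus), that of Tex12 at chr9:50561269-50561518 (minus), that of Sycp1 at chr3:102936101-102936350 (minus) and that of the second Syce2 start at chr8:84872008-84872257 (plus).
Sycp3: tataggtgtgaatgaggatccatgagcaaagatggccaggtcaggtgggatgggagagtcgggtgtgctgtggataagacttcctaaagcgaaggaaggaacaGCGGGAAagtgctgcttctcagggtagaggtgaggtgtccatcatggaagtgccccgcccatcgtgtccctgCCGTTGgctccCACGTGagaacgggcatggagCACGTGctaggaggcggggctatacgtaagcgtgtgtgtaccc
Hormad1: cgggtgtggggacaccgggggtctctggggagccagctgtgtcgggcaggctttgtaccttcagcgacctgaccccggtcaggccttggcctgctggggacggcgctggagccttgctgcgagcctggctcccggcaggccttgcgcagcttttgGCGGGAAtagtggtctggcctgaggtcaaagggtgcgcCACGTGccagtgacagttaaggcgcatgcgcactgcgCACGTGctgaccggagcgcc
Tex12: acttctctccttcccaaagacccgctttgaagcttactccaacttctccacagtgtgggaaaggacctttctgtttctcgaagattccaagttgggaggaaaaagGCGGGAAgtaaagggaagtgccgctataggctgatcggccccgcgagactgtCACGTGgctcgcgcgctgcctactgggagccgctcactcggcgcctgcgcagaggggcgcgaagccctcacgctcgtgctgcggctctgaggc
Sycp1: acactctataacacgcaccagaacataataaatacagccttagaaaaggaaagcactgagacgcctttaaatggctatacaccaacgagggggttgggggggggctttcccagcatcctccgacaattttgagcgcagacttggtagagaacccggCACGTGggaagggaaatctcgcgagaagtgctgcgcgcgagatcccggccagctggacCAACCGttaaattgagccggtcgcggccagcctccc
Syce2: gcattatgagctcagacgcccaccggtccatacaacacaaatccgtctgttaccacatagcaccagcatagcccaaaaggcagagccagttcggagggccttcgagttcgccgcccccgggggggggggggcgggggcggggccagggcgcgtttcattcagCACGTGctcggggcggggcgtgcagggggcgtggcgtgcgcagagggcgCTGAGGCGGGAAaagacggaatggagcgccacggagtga

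The promoter table held 10 windows for the 8 genes, with 2 overlapping windows each for Hormad1 and Syce2. GCGGGAA was found before Sycp3, Hormad1, Tex12 and Syce2, that is 4 of the 8 genes. By window it was in 5 of these 10, and in 3.82% of all 32851 promoter windows of this length. CACGTG was found before the same 4 genes and Sycp1, in 6 of the 10 windows, and in 6.02% of all windows. In Sycp3 and Hormad1 the E-box occurred at 2 places, at 64 and 43 bases before the Sycp3 start and at 57 and 20 bases before the first Hormad1 start. CNCCTCAG, the motif of the meiotic inducers STRA8 and MEIOSIN, was found before Hormad2 and Syce2, where the Syce2 match overlaps the E2F match. By window it was in 2 of the 10, and in 6.42% of all windows. CNGTTG, bound by MYB factors, was found before Sycp3, Sycp1 and Hormad2, in 3 of the 10 windows, near its share of 29.3% of all windows. TGACGTCA, the cAMP response element, was in 0 of the 10 windows, and in 1.55% of all windows. The base composition differed as well, since the 10 windows were 53.2% to 68.0% G or C, against a median of 52.4% over all windows. They held 7 to 24 CG pairs each, against a median of 6. Both GCGGGAA and CACGTG contain a CG pair, and the part of base composition in these shares was not tested. A match describes letters in a window and does not show binding.

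**Figure D1:**
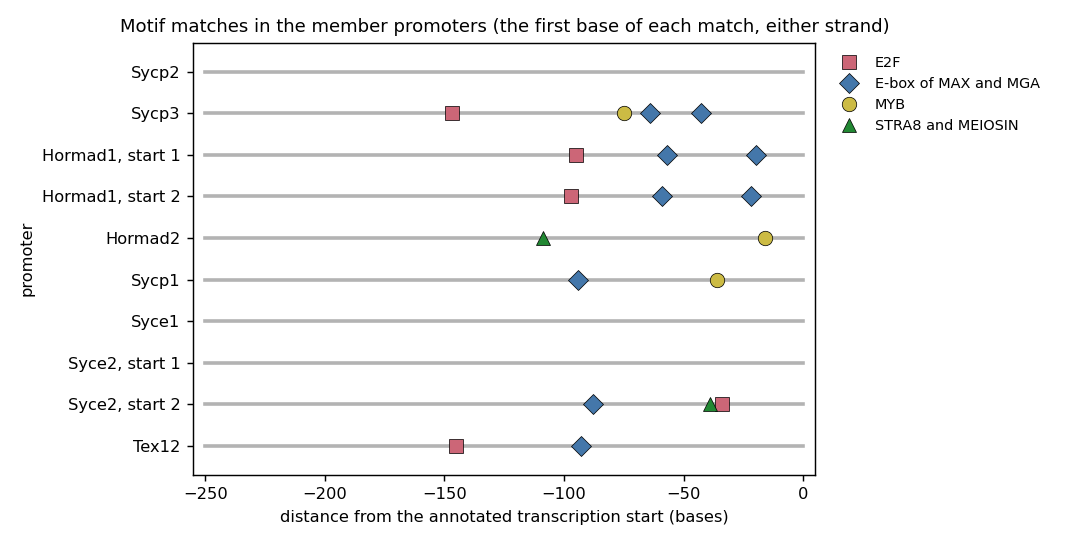
Positions of motif matches in the 10 promoter windows of the 8 genes, as the distance in bases of the first base of each match from the annotated transcription start, which is at 0. The E2F match lies upstream of the E-box in Sycp3, Hormad1 and Tex12, and the windows of Sycp2, Syce1 and the first Syce2 start hold no match.

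Between 8 and 16 days 7 of the 8 genes rose, and the eighth, Syce2, did not pass the test. Over all genes tested, 10.4% rose in this comparison. The rises ran from 0.67 for Tex12 to 2.22 for Sycp2, or 1.60-fold to 4.67-fold, and the median change of the 8 genes was 1.39, against -0.02 for all genes. For the 7 genes that rose, each array of 16 days was above each array of 8 days, which held for 14.7% of all genes in that direction. No member fell by limma, where 14.3% of all genes fell, nor was any lower at an unadjusted p under 0.05 (0 of 8). The share of all genes lower at that unadjusted threshold was not counted.

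The axis core genes Sycp2 and Sycp3 both rose. Sycp2, whose protein binds SYCP3 and anchors SYCP1 to the axis, had values of -2.12, -2.17 and -2.0 at 8 days, -0.03, 0.42 and 0.00 at 16 days and 0.01, 0.38 and 0.08 at 24 days (replicates 1, 2 and 3). The 8-day arrays lay together and far below all others, and the arrays of 16 and 24 days overlapped. Sycp2 rose by 2.22 ± 0.14 between 8 and 16 days (limma adjusted p 3.38e-06), the largest change among the 8 genes with the Hormad1 rows averaged, and 1.22% of all genes had a larger one. Sycp3, the other core protein, which assembles into fibres along the axis, had values of -1.67, -1.29 and -0.74 at 8 days, 0.00, 0.00 and 0.36 at 16 days and 0.16, 0.22 and 0.07 at 24 days. Its 8-day arrays spread more than those of any other member, with an SD of 0.46. It rose by 1.35 ± 0.20 (limma adjusted p 0.00103). Both 0 values at 16 days were blank cells, and with blanks left missing the change was 1.59 (adjusted p 0.0067). Tested against a minimum change of 1.5-fold, Sycp3 had an adjusted p of 0.0511.

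Hormad1 and Hormad2 encode the meiotic HORMA domain proteins, which bind axes that are not synapsed and are removed when synapsis takes place. The mean of the 2 Hormad1 rows was -2.21, -1.89 and -1.68 in the 8-day arrays, 0.00, 0.17 and 0.27 in the 16-day arrays and 0.13, 0.30 and 0.09 in the 24-day arrays. All later arrays were above all 8-day arrays, by at least 1.68 at 16 days. Hormad1 rose by 2.08 ± 0.14 between 8 and 16 days (limma adjusted p 4.51e-06), and its rows, fitted one at a time, rose by 1.67 ± 0.10 and 2.48 ± 0.24. Whether both rows measure Hormad1 alone is unknown here, and with its more variable row alone Hormad1 had a larger change than Sycp2. Hormad2, needed for the checkpoint on unsynapsed chromosomes, had values of -1.54, -1.32 and -1.22 at 8 days, 0.01, 0.00 and 0.20 at 16 days and -0.13, 0.02 and 0.00 at 24 days. Its change was 1.43 ± 0.11 (limma adjusted p 9.75e-06), with the 16-day and 24-day arrays overlapping around 0. The difference between the rises of Hormad1 and Hormad2 was not tested.

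Sycp1, the transverse filament gene, had values of -1.37, -0.95 and -1.24 at 8 days, 0.06, 0.47 and 0.30 at 16 days and 0.00, 0.29 and -0.15 at 24 days. Its arrays at 8 days did not overlap those of the later ages. Sycp1 rose by 1.46 ± 0.15 between 8 and 16 days (limma adjusted p 0.000112), or 2.76-fold.

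Of the central element genes, Syce1 and Tex12 rose and Syce2 was not called, and differences between these genes were not tested. Syce1, whose protein links SYCP1 to the rest of the central element, had values of -1.30, -1.18 and -1.0 at 8 days, 0.00, 0.30 and -0.08 at 16 days and 0.86, 0.78 and 0.76 at 24 days, so that no array of one age overlapped another age. It rose by 1.23 ± 0.12 between 8 and 16 days (limma adjusted p 5.41e-05). Tex12, which forms fibres together with SYCE2, had values of -0.74, -0.26 and -0.42 at 8 days, 0.08, 0.17 and 0.35 at 16 days and 0.00, 0.36 and 0.00 at 24 days. The ages 8 and 16 days were separated by 0.34, the smallest gap among the 7 genes that rose, and the change was 0.67 ± 0.15 (limma adjusted p 0.00778). On the 6 numbered arrays alone the Tex12 change was 0.62 and was not called, with an adjusted p of 0.0638 with the replicate number as a block and 0.0886 without it. Syce2 had values of -0.31, -0.20 and 0.00 at 8 days, 0.07, -0.07 and 0.11 at 16 days and 0.14, 0.01 and -0.06 at 24 days, and its arrays overlapped between all ages. Its change was 0.21 ± 0.10 (limma adjusted p 0.203; 95% interval -0.03 to 0.44), so that a rise of more than 1.36-fold lies outside the interval.

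**Figure D2:**
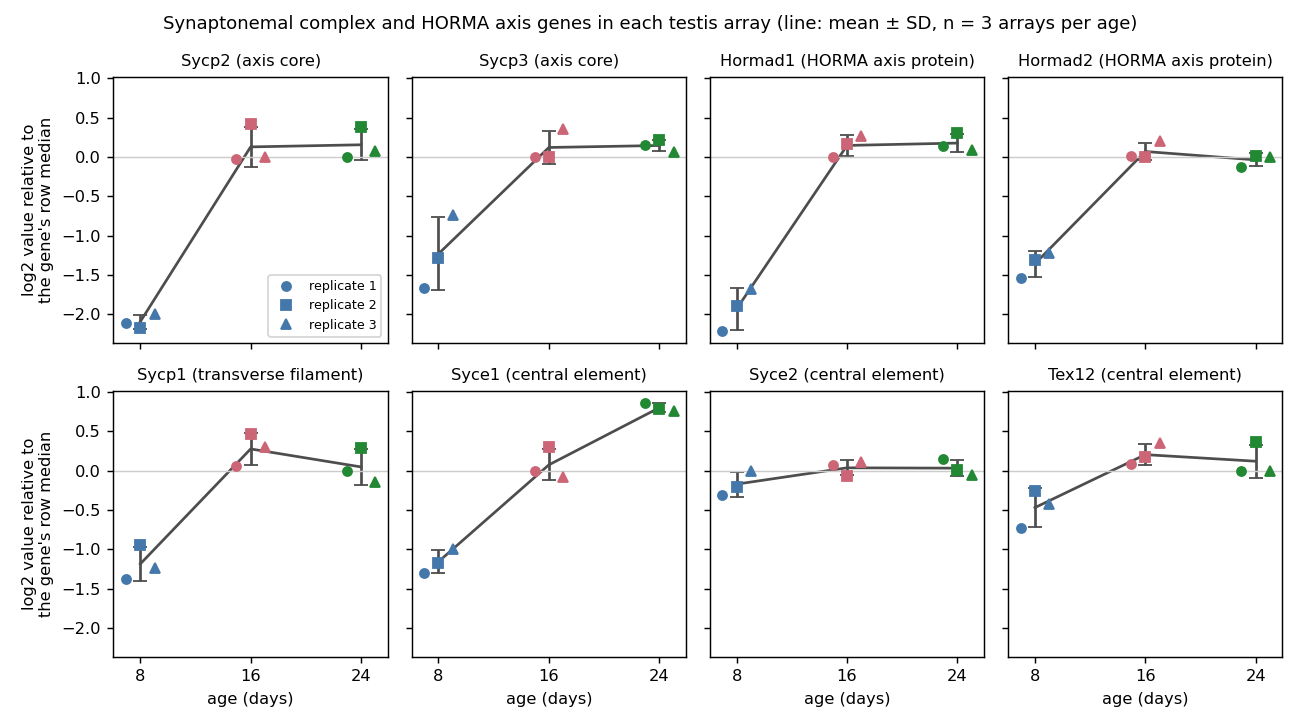
Log2 value of each gene relative to its row median (y axis) by age in days (x axis), with each array as a symbol by replicate and the mean ± SD of 3 arrays as a line. In 7 genes the 8-day arrays lie below all 16-day arrays, Syce1 is again higher at 24 days, and Syce2 stays within -0.31 and 0.14.

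Within an age, several of the genes had their extreme value in the same array. At 8 days, replicate 1 was the lowest array for 7 of the 8 genes and replicate 3 the highest for 6. The share of all genes with these extremes was not counted. Over all genes, the median absolute difference of replicate 1 of 8 days from replicates 2 and 3 was 0.238 and 0.208. Between replicates 2 and 3 of that age it was 0.0914. The mean over the 8 genes was -1.41, -1.16 and -1.04 in replicates 1, 2 and 3 of 8 days, against 0.02 to 0.19 in the 16-day arrays and 0.10 to 0.29 in the 24-day arrays. Replicate 1 of 8 days and replicate 2 of 16 days had a median over 1027 olfactory receptor genes of 0.17, against -0.05 to 0.03 in the other arrays; its part in these values was not tested. Without these 2 arrays the same 7 genes rose between 8 and 16 days, with changes from 0.56 for Tex12 (limma adjusted p 0.0385) to 2.07 for Sycp2.

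Between 16 and 24 days Syce1 was the only one of the 8 genes to pass the test, and 0 fell by limma. At an unadjusted p under 0.05 also 0 were lower, and the share of all genes at that unadjusted threshold was not counted. Over all genes 13.2% rose and 20.1% fell in this comparison (2641 and 4004 genes, or 2861 and 1927 with each array centred on its median). Syce1 rose by a further 0.73 ± 0.12 (limma adjusted p 0.00174), or 1.65-fold with a 95% interval of 1.38 to 1.98. All 24-day arrays of Syce1 were above all 16-day arrays, which held for 16.5% of all genes in that direction. With the replicate number as a block on the 6 numbered arrays the Syce1 change was 0.67 and missed the threshold (adjusted p 0.0649), and against a minimum change of 1.5-fold it was not called. The median change of the 8 genes was 0.01, against -0.16 for all genes.

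For the other 7 genes the change lay between -0.23 ± 0.15 for Sycp1 and 0.03 ± 0.14 for Hormad1 (limma adjusted p 0.257 to 0.98), and in each of them the arrays of the ages overlapped. The 95% interval ran from -0.29 to 0.34 for Sycp2, from -0.28 to 0.34 for Hormad1 and from -0.34 to 0.13 for Hormad2. It was widest for Sycp3, from -0.43 to 0.48, and ran from -0.57 to 0.12 for Sycp1. These bounds leave room for changes in either direction, so that a lack of change was not shown. Tex12 changed by -0.08 ± 0.15 and Syce2 by 0.00 ± 0.10.

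The changes of the intervals were set against each other within the fit. The second interval minus the first was negative and called for Sycp2 (-2.20 ± 0.24), Hormad1 (-2.05 ± 0.24), Hormad2 (-1.54 ± 0.18) and Sycp1 (-1.69 ± 0.27), with limma adjusted p from 0.00053 to 0.00437, while 2.31% of all genes were called in that direction. For Sycp3 the difference was -1.33 ± 0.35 and missed the threshold (adjusted p 0.0618). Without replicate 3 of 8 days, the highest Sycp3 array of that age, the difference for Sycp3 was -1.57 and was called (adjusted p 0.00828). Of 19 alternative fits, 2 called the Sycp3 difference. Tex12 had a difference of -0.76 ± 0.25 (adjusted p 0.15) and Syce1 of -0.51 ± 0.20 (adjusted p 0.25), and for Syce2 it was -0.21 ± 0.18 (adjusted p 0.622).

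**Figure D3:**
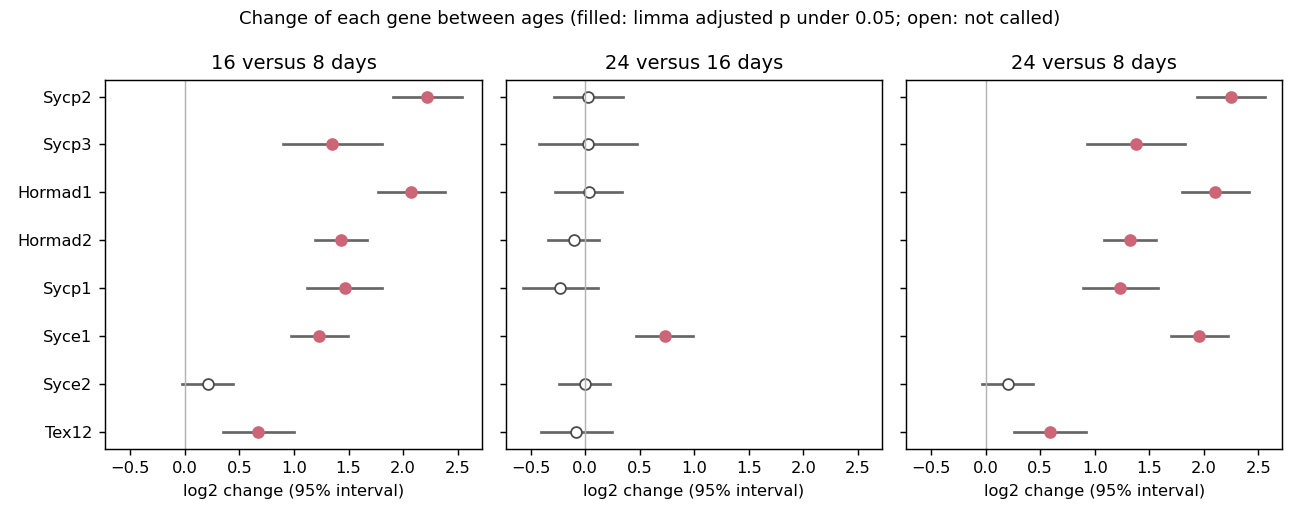
Log2 change of each gene in each comparison (x axis) with its 95% interval as a bar, filled where the limma adjusted p was under 0.05. Of the 8 genes, 7 are filled at 16 versus 8 days, Syce1 alone at 24 versus 16 days, and 7 at 24 versus 8 days.

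Over the whole span from 8 to 24 days the same 7 genes rose, where 19.2% of all genes rose. None of the 8 fell by limma, where 35.2% of all genes fell. None was lower at an unadjusted p under 0.05 either, for which the share of all genes was not counted. With each array centred on its median, 4389 of all genes rose and 5236 fell, against 3825 and 7015 as deposited. All 24-day arrays were above all 8-day arrays in these 7 genes, which held for 20.5% of all genes in that direction. Sycp2 rose by 2.25 ± 0.14, Hormad1 by 2.11 ± 0.14 and Syce1 by 1.96 ± 0.12, which was the third largest change here and the sixth largest between 8 and 16 days. Changes were 1.38 ± 0.20 for Sycp3, 1.32 ± 0.11 for Hormad2, 1.23 ± 0.15 for Sycp1 and 0.59 ± 0.15 for Tex12 (limma adjusted p at most 0.00615 among the 7). Syce2 changed by 0.20 ± 0.10 (adjusted p 0.128), but with the third 8-day array left out its change was 0.29 and was called (adjusted p 0.0486). This was the only 1 of 21 alternative fits that called Syce2 over the whole span. The median change of all genes was -0.18, or -0.06 when each array was centred on its own median, and relative to all genes the 8 changes were 0.38 to 2.43.

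**Figure D4:**
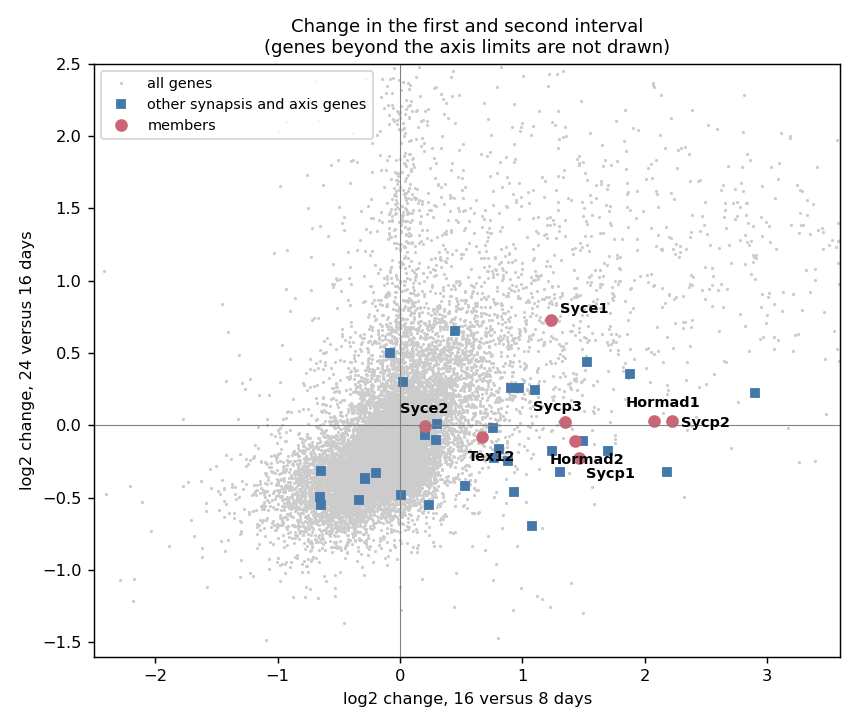
Log2 change from 16 to 24 days (y axis) against that from 8 to 16 days (x axis) for all genes in grey, other synapsis and axis genes as squares and the 8 genes as labelled circles. Both axes use the 16-day arrays, so that no relation between them is read from the plot; 6 of the 8 genes lie between 0.67 and 2.22 on the x axis and between -0.23 and 0.03 on the y axis, with Syce1 above and Syce2 to the left of them.

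Other genes of synapsis and of the chromosome axis were taken from a list of 40 genes, of which 33 had a row of their own. The other genes of that list are not analysed here. Between 8 and 16 days 20 of the 33 rose and 2 fell, against 10.4% and 14.3% of all genes. The median change of the 33 genes was 0.76. With array weights 20 rose and 6 fell, with the replicate block 16 rose and 1 fell, and against 1.5-fold 8 rose. Falls ranged from 1 to 4 when 1 array was left out, with 4 without replicate 3 of 16 days and 1 without any of replicates 2 and 3 of 8 days, 1 and 2 of 16 days and 1 and 2 of 24 days.

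Of the central element genes, Six6os1 (listed as 4930447C04Rik), which binds SYCE1, rose by 1.31 ± 0.24, and Syce1l, a paralog of Syce1, rose by 0.45 ± 0.11. Syce1l rose again between 16 and 24 days, by 0.65 ± 0.11 (limma adjusted p 0.00261), and its 24-day arrays were all above its 16-day arrays. Syce1 and Syce1l were thus the central element genes that rose in both intervals, of 5 measured, while the difference from the other genes was not tested.

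Of 9 cohesin subunits 2 rose and 2 fell at 16 days, and 5 did not pass the test. Stag3 and Smc1b, subunits used in meiosis, rose by 1.10 ± 0.09 and 0.97 ± 0.16 at 16 days. The subunits Smc1a and Stag2, which work in all dividing cells, fell by 0.65 ± 0.15 and 0.65 ± 0.20. For Stag2 the arrays of 8 and 16 days overlapped (limma adjusted p 0.0396). The 5 uncalled subunits, meiotic and general ones among them, changed by between -0.34 and 0.24. Among these, the general subunits Smc3, Rad21 and Stag1 changed by -0.29, -0.34 and 0.01. No difference between the kinds of subunit was tested. With each array centred on its median, 1 gene of the list fell. Rec8, the meiotic kleisin, changed by -0.08 ± 0.15 at 16 days and rose by 0.50 ± 0.15 between 16 and 24 days.

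Of 7 genes of HORMA handling and the axis checkpoint 3 rose at 16 days. Atr, the kinase that HORMAD1 and HORMAD2 help to recruit to unsynapsed axes, rose by 1.49 ± 0.11, its activator Topbp1 by 0.53 ± 0.09 and its substrate H2ax by 0.77 ± 0.14. Trip13, the ATPase that removes HORMA proteins from synapsed axes, changed by -0.29 ± 0.15 at 16 days (limma adjusted p 0.207) and fell by 0.65 ± 0.15 over 8 to 24 days.

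Of 9 genes that link synapsis to recombination 8 rose at 16 days, led by the break-forming enzyme Spo11 with 2.90 ± 0.17, the helicase Hfm1 with 2.18 ± 0.15 and the MutS protein Msh4 with 1.70 ± 0.10. The exception was Tex11, which changed by -0.65 ± 0.22 (adjusted p 0.0611). Of 6 genes that attach chromosome ends to the nuclear envelope 5 rose, among them Terb1 by 1.88 ± 0.13, the dynein linker Kash5 by 1.53 ± 0.16 and Majin by 1.24 ± 0.11.

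Between 16 and 24 days 3 of the 33 genes rose and 6 fell, against 13.2% and 20.1% of all genes. The median change of the 33 genes was -0.18, against -0.16 for all genes. The rises were 1 without replicate 1 or 3 of 16 days or replicate 1 of 24 days, and 5 without replicate 1 of 8 days or replicate 2 of 16 days. The falls were 11 without replicate 2 of 16 days and 3 without replicate 1 of 24 days. With each array centred on its median 5 rose and 4 fell, and with array weights 9 rose and 12 fell. With the replicate number as a block on the 6 numbered arrays 0 rose and 0 fell by limma, on the same arrays without the block 0 rose and 1 fell, and against a minimum of 1.5-fold 0 rose and 0 fell, so that none of the calls named for this interval, those of Syce1l and Rec8 included, held with the block or against 1.5-fold. Dmc1, the recombinase of meiotic strand exchange, rose by 1.08 ± 0.17 in the first interval and fell by 0.70 ± 0.17 in the second. Msh5, the partner of Msh4, rose by 0.93 ± 0.10 and then fell by 0.46 ± 0.10, and Topbp1 fell by 0.42 ± 0.09. Over 8 to 24 days 19 of the 33 genes rose and 8 fell, against 19.2% and 35.2% of all genes. With the replicate block 17 rose and 4 fell over that span, and against 1.5-fold 11 rose and 1 fell.

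**Figure D5:**
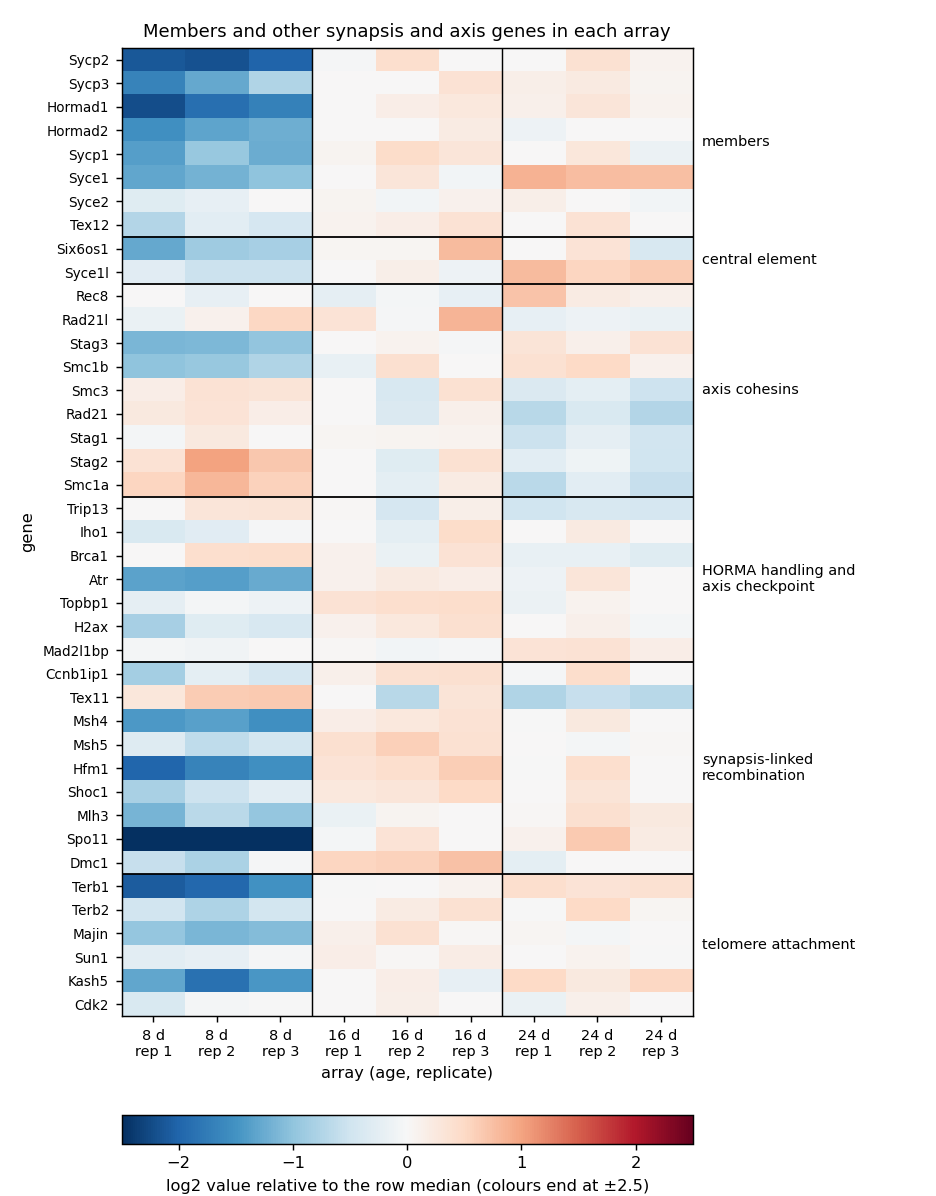
Log2 value relative to the row median, as colour, for the 8 genes and the 33 other synapsis and axis genes (rows, by role) in each of 9 arrays (columns, by age and replicate). Most rows are blue at 8 days and near 0 at 16 and 24 days. Smc1a, Stag2, Tex11, Rad21, Smc3, Trip13 and Brca1 are among the rows that run the other way. Syce1 and Syce1l are among the rows that are red at 24 days, and Dmc1 is among those that are red at 16 days.

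The genes nearest in profile were sought by the root mean squared difference over the 9 arrays among 18603 other named genes. Nearest to the mean of the 8 genes were Diablo (0.11), Meioc (0.12), Alg8 (0.12), Kdm3a (0.12), Rad9b (0.12) and Hectd2 (0.13). Meioc is needed for germ cells to stay in meiotic prophase, and Rad9b is a germ cell paralog of a checkpoint clamp subunit. Nearest to Hormad1 was Terb1, at 0.18, to Hormad2 Mdc1, a reader of phosphorylated H2AX, at 0.13, and to Sycp2 Mlc1, at 0.15. Syce1 was matched closely by Cog6 (0.05) and Supt20 (0.07), which changed by 1.22 and 1.17 in the first interval and by 0.70 and 0.71 in the second. For the mean of the 8 genes, the changes of the nearest 6 ran from 1.11 to 1.41 in the first interval and from -0.02 to 0.20 in the second. These are descriptions over 9 arrays that share their ages.

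Cell type markers moved over the same intervals. Over all genes 10.4% rose and 14.3% fell between 8 and 16 days, and 13.2% rose and 20.1% fell between 16 and 24 days. Of 12 pachytene spermatocyte markers 11 rose between 8 and 16 days and 9 rose between 16 and 24 days. Their mean per array was -2.60 to -2.49 at 8 days, -0.12 to 0.39 at 16 days and 1.14 to 1.20 at 24 days. The 10 spermatid markers changed by between -0.09 and 0.09 in the first interval and 10 of 10 rose in the second, and their mean per array was 3.52 to 4.58 at 24 days. Of 12 spermatogonial markers 8 fell and 1 rose at 16 days, and of 10 Sertoli cell markers 6 fell. In the same interval 4 of 5 Leydig cell, 3 of 4 peritubular myoid, 4 of 4 endothelial and 1 of 4 macrophage markers fell. Between 16 and 24 days 10 of the 12 spermatogonial markers fell and 1 rose, 7 of the 10 Sertoli cell markers fell, and of the 5 Leydig cell markers 2 rose and 1 fell, with a median change of 0.92. In that interval 2 of 4 peritubular myoid and 2 of 4 endothelial markers fell. Since values are centred per row, no marker can be read as absent. The part of these shifts in the changes of the 8 genes was not tested.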

How the data were processed

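Biotin-labelled whole-transcript arrays of testis RNA were measured at 8, 16 and 24 days, with 3 arrays per age. The deposited values are on a log scale, taken as log2, and centred, row by row, on the median of the 9 arrays; background correction, normalization and summarization are not given in the sources used here. Of 28815 rows, 21780 carried 1 gene symbol, 1605 several and 5430 none in the platform annotation, and 21689 of the first had a gene ID in the RefSeq table. Rows were averaged per gene (19935 genes) with 38964 blank cells as 0; the 9 rows of the 8 genes held 12 blanks.

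All genes entered a limma fit (limma 3.58.1, R 4.3.3; 1 mean per age, 6 residual and 3.82 prior degrees of freedom), 2-sided, with Benjamini-Hochberg adjustment over all genes and a threshold of 0.05. Intervals are at the 95% level. The fit was tested on simulated data. The number of arrays limits the precision. The labels call the arrays biological replicates, and nothing was found to be a duplicate. Deviations of same-numbered arrays correlated by -0.461 to 0.197, so the numbers were not treated as pairs. Comparisons of 16 with 8 and 24 with 16 days share the 16-day arrays. The 8 genes were all named; of 33 other synapsis genes only ones called in some comparison were named in the text, with the rest given by count, and the nearest 6 genes to the mean and nearest 2 to each gene were sought. Genes, lists, motifs and alternatives were chosen with earlier results of these data known. Alternatives covered array centring, blank cells, rows per gene, array weights, robust variance, fewer arrays, the replicate block and a minimum fold.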

Additional observations from a re-analysis of the deposited data

How the results depend on the processing

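Over all alternatives 656 changes of the 8 genes were recomputed: 644 stayed on their side of the threshold, 8 kept their direction but were no longer called, 4 became called, and no called change turned its sign. Uncalled changes near 0 between 16 and 24 days, such as that of Sycp2 (-0.09 to 0.17), took either sign. The number of the 8 genes that rose between 16 and 24 days was 0 with the replicate block and 0 against a minimum of 1.5-fold, where Sycp3 (16 against 8 days) and Tex12 (16 and 24 against 8 days) also lost their calls. On the 6 numbered arrays without the block, which was added after seeing the data, Sycp1 lost its call for the difference of intervals (adjusted p 0.0993). With array weights that difference was called for Sycp3 (-0.91, adjusted p 0.0137) and Tex12 (-0.51, adjusted p 0.0369). The fit with array weights gave replicate 1 of 16 days a weight of 8.59, against 0.285 and 0.956 for replicates 2 and 3 of that age. Its 16-day means thus leaned mostly on 1 array. Sycp3 and Tex12 have no value where rows are limited to 1 blank cell.

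Counts over all genes moved more. At 16 against 8 days 4914 genes were called, 7893 with array weights, 1971 with the replicate block, 2485 on the same 6 arrays without it, and 696 against 1.5-fold. At 24 against 16 days 6645 were called, 12355 with array weights, 1294 with the block, 1576 without it and 793 against 1.5-fold. Leaving out 1 array gave between 3669 genes, with the first 16-day array omitted, and 8070, with the first 8-day array omitted, and 3811 with the first 24-day array omitted. At 24 against 8 days 10840 were called, and 3578 against 1.5-fold. The causes were not tested, except that the 6-array fits hold fewer arrays and the fold minimum is stricter by construction. Values centred per row give no signal over background, so that its limit cannot be stated.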
